A study of Homo sapiens with 7 samples.

Results

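The genes described here are the kinases, cyclins, checkpoint, kinetochore, spindle and cytokinesis genes that a cell uses to enter and complete mitosis, taken as the rows of the deposited count files whose gene symbol equals 1 of 36 listed names. The symbols found 35 of the 36 members among 60662 genes. The exception was KIF23, a motor of the central spindle, whose gene ID (ENSG00000137807.15) carries the symbol AC027237.1 in the files and the name KIF23 in GENCODE 29. It is reported apart by its ID and enters no count below. The 35 members were measured in 3 STAG2 knockout and 2 wild-type libraries of PF-382, and in 1 STAG2-transduced and 1 empty-vector library of MOLT-14.

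PF-382 and MOLT-14 are human cell lines of T-cell acute lymphoblastic leukaemia (T-ALL), and STAG2 is a subunit of cohesin, the ring complex that holds sister chromatids together and folds chromosomes into loops. In the knockout libraries STAG2 had been edited by delivery of Cas9 with its guide RNA as a ribonucleoprotein, and the wild-type libraries came from PF-382 without a stated edit. MOLT-14 cells had been transduced with STAG2 or with the empty vector. The labels give no treatment beyond these for the cultured cells, and total RNA was sequenced. Whether libraries of 1 group came from separate clones or cultures is not stated, so the p-values measure the spread between these libraries, which may be technical. The replicate numbers used here are names in accession order. The labels give knockout 1 and both wild types the code SA, and knockouts 2 and 3 the code SB, without saying what the letters mean.

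Totals were 65262329 to 93970572 counts in the knockout libraries, against 32609485 and 33145516 in the wild-type libraries, and 45013453 counts with STAG2 against 38678382 with the empty vector. STAG2 itself was at 242, 171 and 185 CPM (counts scaled to library size, with TMM factors over the PF-382 libraries) in the knockout libraries, against 305 and 518 CPM in the wild types (log2 -1.13, SE 0.26, adjusted p 0.0218, edgeR). In MOLT-14 it was at 164 CPM with STAG2 and 1.35 CPM with the empty vector. All 10 T-lineage markers were detected in every library, with a summed level of 2105 to 3151 CPM (scaled over all 7 libraries, as for the other marker lists). Of the markers of other cell types, the B-lineage list summed to 4.40 to 19.95 CPM in the knockouts, 37.7 CPM in wild type 1 and 7.24 CPM in wild type 2, mostly through CD79A, while MS4A1 was at 0 in all 7. In MOLT-14 that list summed to 85.2 CPM with STAG2 and 67.4 CPM with the empty vector. There CD79A was at 42.2 and 30.0 CPM and BLK at 41.8 and 36.8 CPM, while BLK was at 0 in PF-382. The stromal and epithelial list summed to 8.04 to 10.6 CPM in the knockouts and 27.8 and 11.7 CPM in the wild types. Of this list KRT18 was at 5.86 to 8.98 CPM in the knockouts and 19.3 and 6.25 CPM in the wild types. COL1A2 was at 0 in all 7 libraries. In MOLT-14 the list summed to 3.33 CPM with STAG2 and 2.45 CPM with the empty vector. The myeloid list stayed at or under 0.165 CPM in PF-382. In MOLT-14 it summed to 1.22 CPM with STAG2 and 2.01 CPM with the empty vector, mostly through CD33 (1.04 and 1.54 CPM). The erythroid and megakaryocyte list summed to 0.372 to 2.04 CPM over the libraries, all from KLF1 and ITGA2B, and HBA1 and HBB were at 0 throughout. The part of these differences in the results below was not tested.

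Mitotic genes are transcribed late in the cell cycle. Cyclin B with CDK1 starts mitosis, Polo and Aurora kinases build the spindle and correct its attachments, the checkpoint kinases hold back the anaphase-promoting complex (APC/C) until every kinetochore is attached, and the central spindle proteins then place the cleavage furrow. Many of these genes share a promoter layout: a cell cycle genes homology region (CHR, with the letters TTTGAA) near the start, bound by MuvB complexes together with B-MYB and FOXM1, and CCAAT boxes upstream of it, bound by NF-Y. The summed level of such genes is often used as a readout of proliferation. In bulk RNA, fewer cells in mitosis and less RNA per mitotic cell cannot be told apart.

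Promoter sequence was at hand for 28 of the 35 members, as RefSeq windows (GRCh38.p14) reaching 250 bases before to 50 after a gene's start. FOXM1, AURKA, BIRC5, BUB3, TTK, UBE2C and TPX2 had none. The letters TTTGAA, read on either strand, stood in the windows of 20 of the 28 members (71.4%), against 15.8% of 15843 protein-coding genes. In the 60 bases before the start they stood in 11 of 28 members (39.3%), against 2.85% of coding genes. The letters CCAAT, read on either strand, stood in 22 of 28 (78.6%), against 42.1% of coding genes, and in the last 60 bases in 14 of 28 (50.0%), against 13.1%. TTCGAA, a variant of the first motif, was found in 3 of 28 windows (10.7%), against 2.11%. A match is a string of letters and not a measured binding site. The 100 bases before the start are shown for 9 members. PLK1, PRC1, ANLN and MKI67 hold TTTGAA there and were called lower in the knockouts in the results that follow. KIF20A was called lower and holds no TTTGAA. CCNB2, KIF11 and HMMR hold TTTGAA and were not called, and CCNB1 holds none and was not called. Capitals mark TTTGAA and CCAAT on either strand (TTCAAA and ATTGG on the other), and some of the marked stretches in MKI67 and HMMR overlap.
PLK1: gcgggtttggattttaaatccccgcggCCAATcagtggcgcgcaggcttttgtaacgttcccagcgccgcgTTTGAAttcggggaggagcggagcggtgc
PRC1: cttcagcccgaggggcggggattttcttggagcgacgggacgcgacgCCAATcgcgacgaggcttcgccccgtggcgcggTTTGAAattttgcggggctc
ANLN: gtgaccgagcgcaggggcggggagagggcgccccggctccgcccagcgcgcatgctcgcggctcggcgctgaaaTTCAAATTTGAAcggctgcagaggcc
MKI67: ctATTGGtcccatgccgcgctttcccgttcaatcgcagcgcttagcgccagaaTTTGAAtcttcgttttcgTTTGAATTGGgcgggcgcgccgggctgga
KIF20A: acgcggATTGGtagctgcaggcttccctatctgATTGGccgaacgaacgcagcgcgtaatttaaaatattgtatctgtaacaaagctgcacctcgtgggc
CCNB2: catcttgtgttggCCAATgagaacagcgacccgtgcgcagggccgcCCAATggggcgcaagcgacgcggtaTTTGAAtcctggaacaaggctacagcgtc
KIF11: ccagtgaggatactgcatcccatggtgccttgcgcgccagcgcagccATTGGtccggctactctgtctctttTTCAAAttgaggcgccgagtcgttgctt
HMMR: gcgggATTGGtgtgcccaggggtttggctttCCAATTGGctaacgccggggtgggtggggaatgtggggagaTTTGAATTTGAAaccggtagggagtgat
CCNB1: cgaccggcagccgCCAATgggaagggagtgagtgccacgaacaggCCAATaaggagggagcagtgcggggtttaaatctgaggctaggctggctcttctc
These windows lie at chr16:23678789-23678888 on the plus strand for PLK1, chr15:90994536-90994635 on the minus strand for PRC1, chr7:36389762-36389861 on the plus strand for ANLN, chr10:128126424-128126523 on the minus strand for MKI67 and chr5:138179012-138179111 on the plus strand for KIF20A. The others lie at chr15:59105046-59105145 on the plus strand for CCNB2, chr10:92593030-92593129 on the plus strand for KIF11, chr5:163460532-163460631 on the plus strand for HMMR and chr5:69167050-69167149 on the plus strand for CCNB1. Over the whole windows, TTTGAA stood in 7 of the 8 members called lower in the knockouts and in 13 of the 20 not called. The CHR letters thus stood on both sides of the call, and their share was not tested against it.

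The wild-type libraries differed from each other in these genes more than in most others. Wild type 2 was above wild type 1 in 35 of 35 members, with a median log2 ratio of 0.72, against -0.01 over all 17442 genes tested. It was higher by at least 1.5-fold in 23 members, where 11.3% of all genes were that much higher and 19.4% that much lower. Among genes of at least 10 CPM the share that much higher was 8.47%. The widest gap belonged to DLGAP5, a microtubule-binding spindle protein, at 372 CPM in wild type 2 and 159 CPM in wild type 1 (log2 1.24, exact 95% interval for counting error 1.19 to 1.29). TOP2A, the topoisomerase that untangles sister chromatids, was at 2599 CPM in wild type 2 and 1156 CPM in wild type 1 (log2 1.19, interval 1.17 to 1.20). HMMR, a spindle-pole microtubule protein, was at 153 CPM in wild type 2 and 154 CPM in wild type 1. NUF2, a kinetochore subunit, was at 86.3 CPM in wild type 2 and 77.1 CPM in wild type 1, so that these members differed least. These 4 members were picked after their values were seen.

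The knockout libraries lay much closer together. The range over the 3 knockouts had a median of 0.21 on the log2 scale over the members, against 0.30 over all genes. The members took 0.915%, 0.935% and 0.967% of the protein-coding counts in the knockouts, against 1.05% in wild type 1 and 1.62% in wild type 2. Small RNA genes took 20.97% of the counts of wild type 1 and 14.87% of those of wild type 2, and 11.96% to 13.98% in the knockouts. With protein-coding genes alone, 23 members were still at least 1.5-fold higher in wild type 2, with a median of 0.70. Both libraries thinned to the same depth gave 23 members and a median of 0.72. The deposited TPM scale divides counts by gene length, and then by the sum of these length-divided counts in the library. On that scale with a pseudocount of 1, 33 members were at least 1.5-fold higher in wild type 2, with a median of 1.06. Of all genes 17.7% were that much higher, and their median was 0.17.

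**Figure D1:**
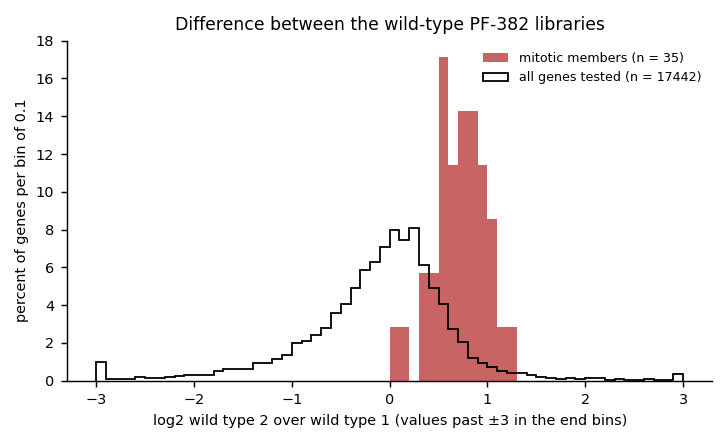
Share of genes (percent per bin of 0.1) at each log2 ratio of wild type 2 over wild type 1 in PF-382, for the 35 mitotic members (filled) and all 17442 genes tested (outline). All members lie above 0, with a median of 0.72, while all genes centre on -0.01.

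Against this spread, 9 of the 35 members were called lower in the STAG2 knockout and 0 higher at an adjusted p under 0.05 (edgeR's quasi-likelihood test, Benjamini-Hochberg adjustment over all genes), where 14.6% of all genes tested were called lower and 15.8% higher. At an unadjusted p under 0.05, 13 members were lower and 0 higher, and DESeq2 and limma voom called 0 higher as well. The members called lower were the kinases PLK1 and AURKA, the phosphatase CDC25C, the kinetochore gene NUF2, the cytokinesis genes KIF20A, PRC1, ANLN and ECT2, and the proliferation marker MKI67. The median log2 change over the members was -0.43, against -0.02 over all genes. In 11 members, the 9 called and UBE2C and CENPA, all 3 knockouts lay below both wild types, which held for 26.4% of all genes. In 0 members did all knockouts lie above both wild types, against 34.2% of all genes. In another 11 members all knockouts lay between the wild types, against 10.4% of all genes.

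These calls rested on counts scaled with TMM. On TPM, all 3 knockouts lay below both wild types in 5 members, PLK1, AURKA, KIF20A, ANLN and ECT2, against 18.8% of all genes, and above both in 0, against 31.0% of all genes. In CDC25C, NUF2, PRC1 and MKI67 knockout 1 alone was above wild type 1 on this scale. In UBE2C and CENPA all 3 knockouts were above wild type 1 and below wild type 2 on it. Limma on log2(TPM + 1), an alternative chosen after seeing the data, called 0 members lower and 0 higher, with 1 lower and 0 higher at an unadjusted p under 0.05, where 6.73% of all genes were called lower and 11.0% higher. The 9 members called on counts had log2 changes of -0.81 to -0.31 there, with adjusted p of 0.106 to 0.353. The median was -0.26 over the members and 0.05 over all genes.

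How the knockouts compared therefore depended on which wild type they were set against. By CPM scaled with TMM, the mean of the knockouts was higher than wild type 1 in 21 of 35 members. The median log2 ratio was 0.08, against 0.05 over all genes. Against wild type 2 the mean was lower in 32 members, with a median of -0.71, against 0.08 over all genes. Wild type 2 was above all 3 knockouts in 30 members, against 36.8% of all genes. Wild type 1 was above all 3 in 11 members, a share close to the 37.8% of all genes. It was below all 3 in 15 members, against 44.7% of all genes. On TPM the members summed to 1909, 1766 and 1765 in the knockouts, against 1379 in wild type 1. By CPM scaled over all 7 libraries these sums were 8311, 8573 and 9058, against 7886 in wild type 1. The gap to wild type 1 thus differed with the scale. Without wild type 2, 5 members were called lower (PLK1, AURKA, KIF20A, PRC1 and ANLN) and 4 higher (BIRC5, CCNB1, KIF11 and MAD2L1), with a median of 0.03, where 14.9% of all genes were called lower and 19.3% higher. Without wild type 1, 29 members were called lower and 0 higher, with a median of -0.78, where 15.0% of all genes were called lower and 19.6% higher. In these fits the lone wild type is assumed to vary like the knockouts. Without knockout 1, 2 or 3, 0 members were called, with a smallest adjusted p of 0.0547, 0.0538 and 0.0647 and with 8, 11 and 10 members lower at an unadjusted p under 0.05. The share of all genes called lower was 7.32%, 6.65% and 6.49% in those fits. In the SA-coded libraries alone, knockout 1 against both wild types, 0 members were called and 4 were lower at an unadjusted p under 0.05, with a median of -0.47, and 1.14% of all genes were called lower.

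**Figure D2:**
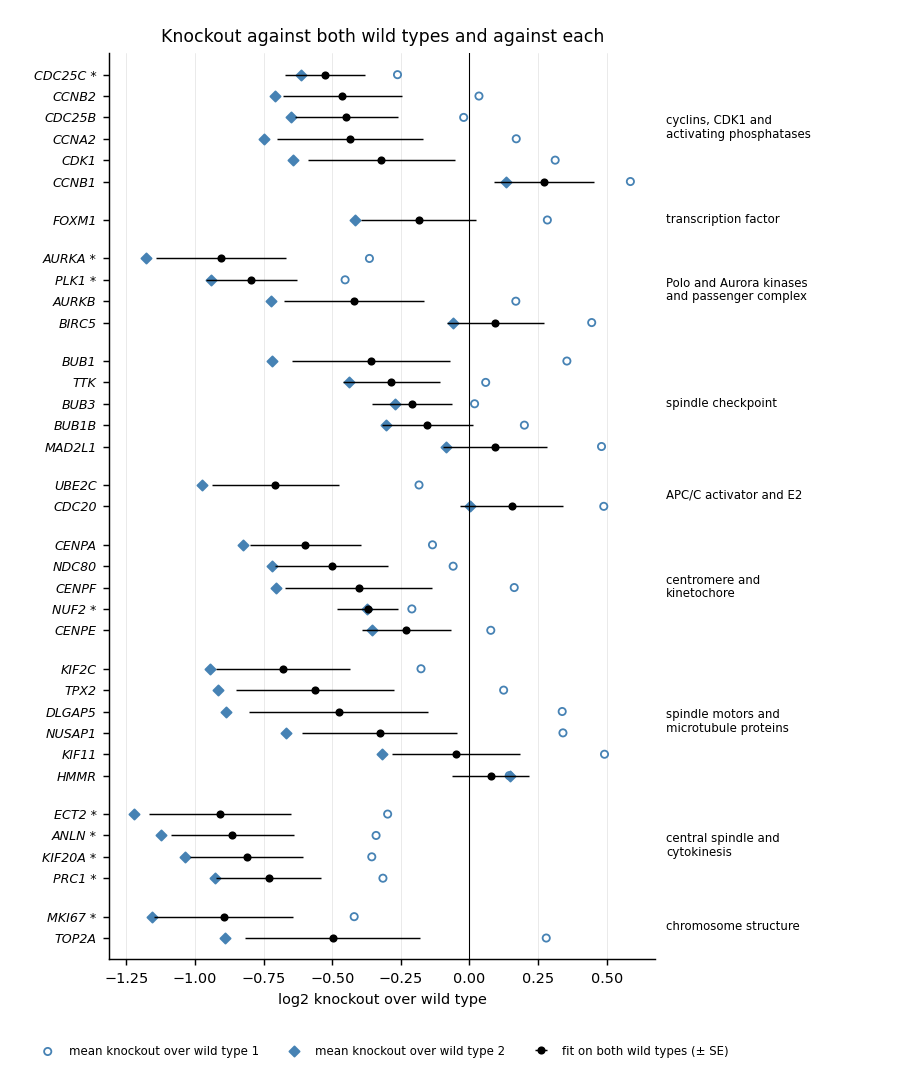
Log2 of the mean knockout over wild type 1 (open circles), over wild type 2 (diamonds) and in the fit on both wild types (black, bars are ± SE) for the 35 members, grouped by role, with an asterisk at an adjusted p under 0.05. The 9 called members lie left of 0 against either wild type. Against wild type 1, 21 members lie right of 0 by CPM scaled with TMM, where the median of all genes was 0.05.

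Among the cyclins, CDK1 and its activating phosphatases, 1 of 6 members was called lower. CDC25C, a phosphatase that activates CDK1 (chr5:138285265-138338355, GRCh38, as for all gene positions here), was at 20.7, 19.8 and 22.5 CPM in the knockouts, against 25.2 and 32.1 CPM in the wild types. Its groups did not overlap, and it was lower by the fit (log2 -0.53, SE 0.15, adjusted p 0.0382). The call was lost without wild type 2 (adjusted p 0.107) and without each single knockout (0.0802 to 0.119). CCNB1, the cyclin that drives CDK1 into mitosis and the member with the largest positive log2 change, was at 308, 358 and 392 CPM in the knockouts, against 234 and 319.8 CPM in the wild types (log2 0.27, SE 0.18, adjusted p 0.296). Without wild type 2 it was higher (log2 0.54, adjusted p 0.0398). The related cyclin CCNB2 was at 192, 205 and 212 CPM in the knockouts and 198 and 331 CPM in the wild types (log2 -0.46, SE 0.22, adjusted p 0.149). CCNB1 and CCNB2 thus had log2 changes of opposite sign. Both were smaller in size than the gap between the wild types (log2 0.47 and 0.76), and in both genes the groups overlapped in part. For CCNA2, CDK1 and CDC25B the log2 changes ran between -0.45 and -0.32, with adjusted p of 0.115 to 0.394. FOXM1, the transcription factor of many of these genes, was at 130.1, 129.9 and 117 CPM in the knockouts, between the wild types at 103 and 167 CPM (log2 -0.19, SE 0.21, adjusted p 0.526).

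Of the Polo and Aurora kinases and the passenger complex, 2 of 4 members were called lower. PLK1, the Polo kinase of spindle poles and kinetochores (chr16:23677656-23690367), was at 92.7, 96.0 and 83.5 CPM in the knockouts, against 124 and 174 CPM in the wild types. It had the smallest adjusted p of the members (log2 -0.79, SE 0.17, adjusted p 0.0165). AURKA, the Aurora kinase of spindle poles (chr20:56369389-56392337), was at 116, 128 and 137 CPM in the knockouts, against 163 and 287 CPM in the wild types. It was lower by the fit (log2 -0.90, SE 0.23, adjusted p 0.0310), and part of its counts were fractional, meaning that it shares reads with other genes. Both calls held without either wild type (adjusted p 0.00142 to 0.0434) and were lost without each single knockout (0.0538 to 0.0975). AURKB, the Aurora kinase of the passenger complex at centromeres, did not follow AURKA: its knockout values of 102, 112 and 125 CPM lay between those of the wild types, 100.3 and 186 CPM (log2 -0.42, SE 0.25, adjusted p 0.246). BIRC5 (survivin), a passenger subunit, was at 279, 297 and 319 CPM in the knockouts and 219 and 310.3 CPM in the wild types (log2 0.09, SE 0.18, adjusted p 0.707). Without wild type 2 its log2 change was 0.40 (adjusted p 0.0480).

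Of the spindle checkpoint genes 0 of 5 and of the APC/C genes 0 of 2 were called by edgeR, with 0 and 1 lower at an unadjusted p under 0.05 and 0 and 1 called by DESeq2. BUB1, a checkpoint kinase at kinetochores, was at 269, 274 and 273 CPM in the knockouts, between the wild types at 213 and 447 CPM (log2 -0.36, SE 0.29, adjusted p 0.378). The knockouts of BUB1 differed by far less than its wild types. The other checkpoint members TTK (MPS1 kinase), BUB1B (BUBR1), BUB3 and MAD2L1 had log2 changes from -0.29 to 0.09 and adjusted p of 0.258 to 0.732. UBE2C, the ubiquitin-conjugating enzyme of the APC/C, was at 222, 257 and 229.8 CPM in the knockouts, all below the wild types at 268 and 463 CPM, and missed the threshold (log2 -0.71, SE 0.23, adjusted p 0.0595). It was called by DESeq2, with upper-quartile scaling, with a filter of at least 1 CPM, with protein-coding genes alone and at equal depth. CDC20, the APC/C activator of anaphase, was at 225, 266 and 289 CPM in the knockouts and 184 and 258 CPM in the wild types (log2 0.15, SE 0.19, adjusted p 0.562).

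Of the centromere and kinetochore genes, 1 of 5 members was called lower by edgeR, with 3 lower at an unadjusted p under 0.05. DESeq2 called 2 lower and limma voom with quality weights 0. NUF2, a subunit of the NDC80 complex that grips microtubules (chr1:163266576-163355764), was at 62.7, 67.3 and 70.2 CPM in the knockouts, against 77.1 and 86.3 CPM in the wild types. This was the smallest change of the called members (log2 -0.37, SE 0.11, adjusted p 0.0479), and the call was lost without wild type 2 (0.112) and without each single knockout (0.105 to 0.148). NDC80, which pairs with NUF2, was at 69.2, 59.3 and 71.4 CPM in the knockouts and 69.2 and 109 CPM in the wild types (log2 -0.50, SE 0.21, adjusted p 0.108). CENPA, the histone variant that marks centromeres, was at 39.5, 43.6 and 42.5 CPM in the knockouts, all below the wild types at 45.9 and 74.1 CPM (log2 -0.60, SE 0.20, adjusted p 0.0656). CENPA was called lower by DESeq2 (adjusted p 0.0310). EdgeR called it lower with upper-quartile scaling, with a filter of at least 1 CPM and with protein-coding genes alone. CENPE, a kinetochore motor, and CENPF, a large kinetochore protein, had log2 changes of -0.23 and -0.40 with adjusted p of 0.313 and 0.285.

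Of the spindle motors and microtubule proteins 0 of 6 members were called by edgeR, with 1 lower at an unadjusted p under 0.05 and 1, KIF2C, called by DESeq2. The largest change was that of KIF2C, the depolymerising kinesin MCAK, at 152, 168 and 206 CPM in the knockouts and 197 and 335 CPM in the wild types (log2 -0.68, SE 0.25, adjusted p 0.0781). KIF11, the motor that pushes spindle poles apart, was at 337, 334 and 352 CPM in the knockouts, between the wild types at 242 and 426 CPM (log2 -0.05, SE 0.23, adjusted p 0.889). Without wild type 2 KIF11 was higher (log2 0.44, adjusted p 0.0250), and without wild type 1 it was lower (log2 -0.39). TPX2, which activates AURKA on the spindle, was at 433, 376 and 379.8 CPM in the knockouts and 363 and 745 CPM in the wild types (log2 -0.56, SE 0.29, adjusted p 0.180). HMMR was at 146, 178 and 189 CPM in the knockouts and 154 and 153 CPM in the wild types (log2 0.08, SE 0.14, adjusted p 0.704). NUSAP1 and DLGAP5, both microtubule bundling proteins, lay between the wild types in all knockouts, with log2 changes of -0.33 and -0.48 and adjusted p of 0.405 and 0.302.

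All 4 members of the central spindle and cytokinesis group were called lower, with a median log2 change of -0.84. KIF20A, the motor that carries the passenger complex to the midzone (chr5:138178719-138187715), was at 75.5, 88.0 and 87.7 CPM in the knockouts, against 107 and 171 CPM in the wild types (log2 -0.81, SE 0.21, adjusted p 0.0286). PRC1, which bundles the antiparallel microtubules of the midzone (chr15:90966038-90995629), was at 161, 169 and 181 CPM in the knockouts, against 212 and 324 CPM in the wild types (log2 -0.73, SE 0.19, adjusted p 0.0313). Part of the counts of PRC1 were fractional. ANLN (anillin), a scaffold of the contractile ring (chr7:36389806-36453791), was at 109, 114 and 122 CPM in the knockouts, against 145 and 251 CPM in the wild types (log2 -0.86, SE 0.22, adjusted p 0.0311). In all 3 the lower wild type lay closer to the knockouts than to the higher wild type. ECT2, the exchange factor that switches on RhoA at the furrow (chr3:172750682-172821474), was at 152, 168 and 177 CPM in the knockouts, against 203 and 386 CPM in the wild types (log2 -0.91, SE 0.26, adjusted p 0.0404). Without wild type 2 the log2 changes of KIF20A, PRC1, ANLN and ECT2 were -0.40, -0.37, -0.39 and -0.35, with adjusted p of 0.0467, 0.0462, 0.0375 and 0.0685, so that the call of ECT2 was lost. Without each single knockout none of the 4 was called (adjusted p 0.0772 to 0.117). KIF23, the partner motor of the midzone read by its gene ID, was at 89.0, 88.8 and 99.1 CPM in the knockouts, all below the wild types at 103 and 178 CPM, and missed the threshold (log2 -0.69, SE 0.22, adjusted p 0.0601).

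Of the chromosome structure genes, 1 of 2 was called lower. MKI67, the Ki-67 antigen that coats mitotic chromosomes (chr10:128096659-128126385), was at 392, 288 and 286 CPM in the knockouts, against 426 and 709.5 CPM in the wild types (log2 -0.90, SE 0.25, adjusted p 0.0404). Knockout 1 stood above the other knockouts in MKI67, near wild type 1. The call was lost without wild type 2 (adjusted p 0.125) and without knockout 1, 2 or 3 (0.0547, 0.123 and 0.122). TOP2A, the most counted member, was at 1363, 1360.0 and 1488 CPM in the knockouts, between the wild types at 1156 and 2599 CPM (log2 -0.50, SE 0.32, adjusted p 0.271).

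Of the 35 members, CCNB1, BIRC5, MAD2L1, CDC20 and HMMR had a log2 change above 0, and CCNB1 alone stayed above 0 when libraries were scaled by their upper quartile. The median of all genes was then at -0.18. That scaling called 14 members lower, and 33.8% of all its calls were higher, against 52.0% with TMM. It called 20.4% of all genes lower, against 14.6% with TMM. Limma voom with sample quality weights called 5 members lower, against 8.71% of all genes. The other count-based settings that kept all 5 libraries called 7 to 12, against 8.32% to 17.4% of all genes.

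**Figure D3:**
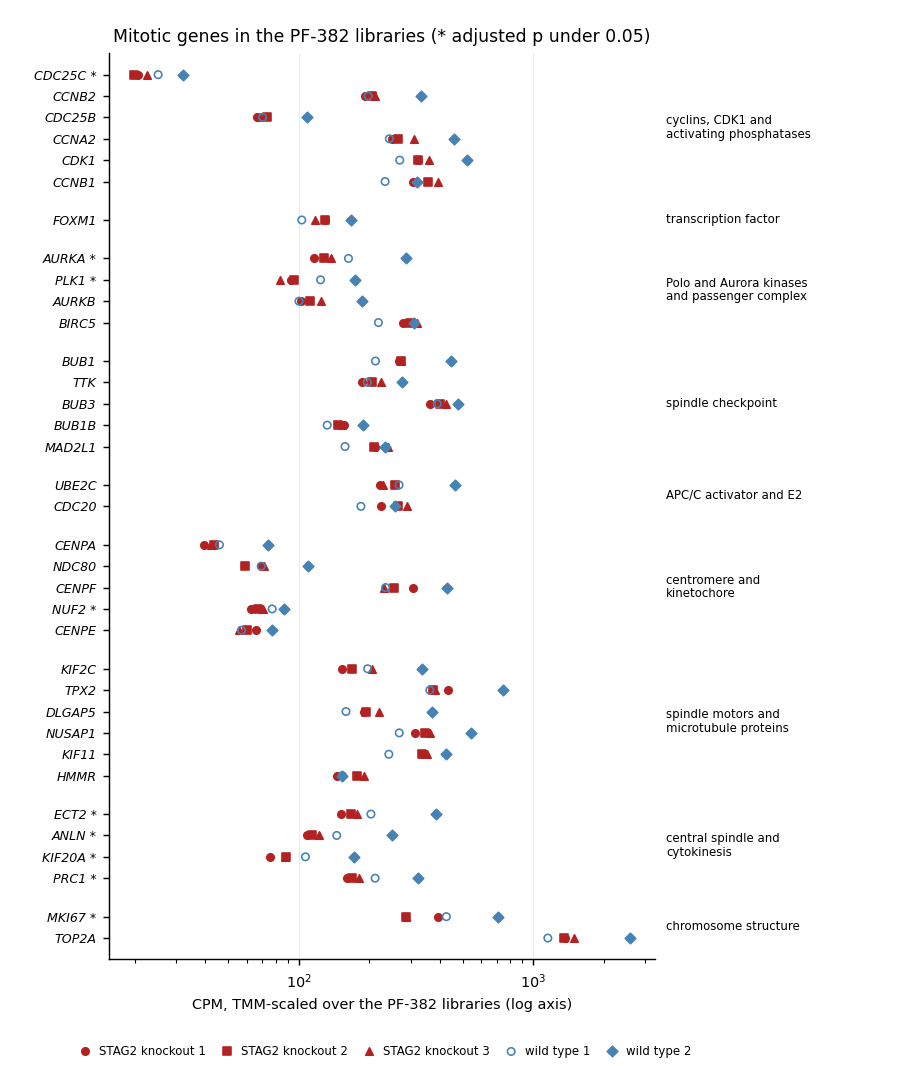
Level of each of the 35 members in the 5 PF-382 libraries (CPM, TMM-scaled, log axis), with STAG2 knockouts in red and wild types in blue, and an asterisk at an adjusted p under 0.05. Wild type 2 lies right of all knockouts in 30 members (36.8% of all genes). Wild type 1 lies left of all of them in 15 (44.7% of all genes) and within their range in 9 (17.5%).

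Levels were compared between genes on the TPM scale. UBE2C had the highest level of the members in every PF-382 library, at 209, 210.1 and 179.8 TPM in the knockouts and 175 and 402 TPM in the wild types. CENPE had the lowest, at 5.27, 4.01 and 4.28 TPM in the knockouts and 4.10 and 8.10 TPM in the wild types. Ratios of TPM within a library do not depend on its total, and 5 pairs were read. AURKA stood at 0.531, 0.533 and 0.519 of the level of AURKB in the knockouts, against 0.751 and 0.717 in the wild types. ECT2 stood at 0.348, 0.373 and 0.341 of the level of BIRC5 in the knockouts, against 0.633 and 0.849 in the wild types. CCNB2 stood at 0.610, 0.584 and 0.537 of the level of CCNB1 in the knockouts, against 0.807 and 0.997 in the wild types. In these 3 pairs the groups did not overlap, and for AURKA over AURKB the wild types differed little. In the other pairs they overlapped. CDC25C stood at 0.607, 0.507 and 0.601 of the level of CDC25B in the knockouts and at 0.688 and 0.593 in the wild types. BUB1 over BUB3 was at 0.363, 0.323 and 0.308 in the knockouts and 0.289 and 0.453 in the wild types. The pairs were chosen after values were seen and carry no test.

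Other mitotic and cell cycle genes were read from 5 lists chosen by function. The edgeR counts are to be read against the 14.6% of all genes called lower and the 15.8% called higher. These shares were 8.71% and 9.55% with limma voom (quality weights), and 16.4% and 19.2% with DESeq2. Of 38 other spindle, motor and cytokinesis genes, 5 were called lower and 1 higher, with a median log2 change of -0.19, and limma voom called 3 lower and 1 higher. PSRC1, a spindle protein, averaged 23.4 ± 0.436 CPM in the knockouts (SD, n = 3) and 54.3 ± 12.3 CPM in the wild types (n = 2), with a log2 change of -1.29 (SE 0.16, adjusted p 0.00397). HAUS4, an augmin subunit with fractional counts, averaged 43.1 ± 2.34 CPM in the knockouts and 69.0 ± 6.56 CPM in the wild types (log2 -0.76, adjusted p 0.00690). AURKAIP1, which binds AURKA, averaged 57.3 ± 1.81 CPM in the knockouts and 34.2 ± 5.20 CPM in the wild types (log2 0.67, adjusted p 0.0135), a call lost without knockout 2 (0.0601) and without knockout 3 (0.0603). Of 36 other kinetochore and passenger genes 4 were called lower and 10 higher (median 0.11), while limma voom called 1 lower and 4 higher. CENPX and CENPM, of the inner kinetochore, had log2 changes of 1.43 and 1.09 (adjusted p 0.00276 and 0.00378). ZWINT, an outer kinetochore linker, had a log2 change of 0.71 (adjusted p 0.0110), a call lost without knockout 3 (0.0510).

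Of 31 other genes of the APC/C and of mitotic entry and exit, 2 were called lower and 10 higher (median 0.10), while limma voom called 1 lower and 6 higher. ENSA, an inhibitor of the PP2A phosphatase, averaged 185 ± 6.40 CPM in the knockouts and 88.5 ± 2.66 CPM in the wild types (log2 0.99, adjusted p 0.00345). The APC/C subunits ANAPC7 and ANAPC1 had log2 changes of 0.92 and 0.83 (adjusted p 0.00351 and 0.00565), and all 3 had fractional counts. Of 17 MuvB, DREAM and B-MYB genes, 0 were called lower and 7 higher (median 0.31), with 1 lower at an unadjusted p under 0.05, and limma voom called 0 lower and 4 higher. DESeq2 called 0 of them lower. E2F4 and E2F2 had log2 changes of 1.06 and 0.93 (adjusted p 0.00375 and 0.0135), though E2F2, counted in this list, is not a DREAM subunit. TFDP1 had a log2 change of 0.80 (adjusted p 0.0146), a call lost without knockout 1 (0.0544) and without knockout 3 (0.0535). Of 42 genes of the G1/S transition and DNA replication, 1 was called lower and 23 higher (median 0.79), as with limma voom. POLD2, a subunit of polymerase delta, averaged 241 ± 11.5 CPM in the knockouts and 93.0 ± 0.469 CPM in the wild types (log2 1.29, adjusted p 0.00264). POLA2, with fractional counts, and CDC45 had log2 changes of 1.21 and 1.09 (adjusted p 0.00276 and 0.00303). Against wild type 1 the median log2 ratio of the knockouts was 0.94 over the replication genes and 0.08 over the mitotic members. Against wild type 2 it was 0.68 over the replication genes and -0.71 over the mitotic members. The difference between the lists was not tested. Their medians of wild type 2 over wild type 1 were 0.25 and 0.72.

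In MOLT-14 the members were higher with STAG2 than with the empty vector in 35 of 35 cases by CPM scaled with TMM over the MOLT-14 libraries, where 57.6% of 11442 genes of at least 5 CPM in either library were higher by any amount. By at least 1.5-fold, 18 members were higher and 0 lower, against 4.18% of all genes higher and 3.26% lower. The median log2 ratio was 0.60 over the members and 0.05 over all genes. Each condition is 1 library, so there is no replicate check and no test, and the intervals given are exact 95% intervals that cover counting error alone. The 18 members were CCNB1, CCNB2, CCNA2, PLK1, AURKA, AURKB, BIRC5, BUB1, CDC20, UBE2C, CENPA, KIF2C, HMMR, NUSAP1, DLGAP5, KIF20A, PRC1 and ECT2. They include 4 of 4 Polo, Aurora and passenger genes and 3 of 4 central spindle genes, but 1 of 5 checkpoint genes and 1 of 5 centromere and kinetochore genes.

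The largest ratio was that of PLK1, at 102 CPM with STAG2 and 50.0 CPM with the empty vector (log2 1.03, interval 0.95 to 1.10). KIF20A was at 82.0 CPM with STAG2 and 40.3 CPM with the empty vector (log2 1.02, interval 0.94 to 1.11). CCNB2 was at 112 CPM with STAG2 and 56.1 CPM with the empty vector (log2 0.99, interval 0.92 to 1.06). KIF2C and CENPA followed with log2 ratios of 0.98 (interval 0.92 to 1.04) and 0.85 (interval 0.71 to 1.01). The smallest ratios belonged to MAD2L1, at 103 CPM with STAG2 and 84.2 CPM with the empty vector (log2 0.28, interval 0.22 to 0.35), and to BUB3, at 208 CPM with STAG2 and 165 CPM with the empty vector (log2 0.33, interval 0.29 to 0.38). NDC80, KIF11 and CDK1 had ratios of 0.38, 0.39 and 0.41. KIF23 by its gene ID was at 78.5 CPM with STAG2 and 59.2 CPM with the empty vector (log2 0.41, interval 0.33 to 0.48).

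The scale mattered in this pair of libraries. On the deposited TPM scale with a pseudocount of 1, 0 members passed 1.5-fold, 19 were higher and 16 lower with STAG2, and their median log2 ratio was 0.03, while the median of all genes moved to -0.46. Relative to all genes the members thus stood higher on both scales. Mitochondrial genes took 1.43% of the counts with STAG2 and 4.92% with the empty vector, and small RNA genes 9.27% with STAG2 and 4.87% with the empty vector. The members took 0.589% of the protein-coding counts with STAG2 and 0.448% with the empty vector. The ratio AURKA over AURKB, which separated the PF-382 groups, was 0.344 with STAG2 and 0.345 with the empty vector.

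**Figure D4:**
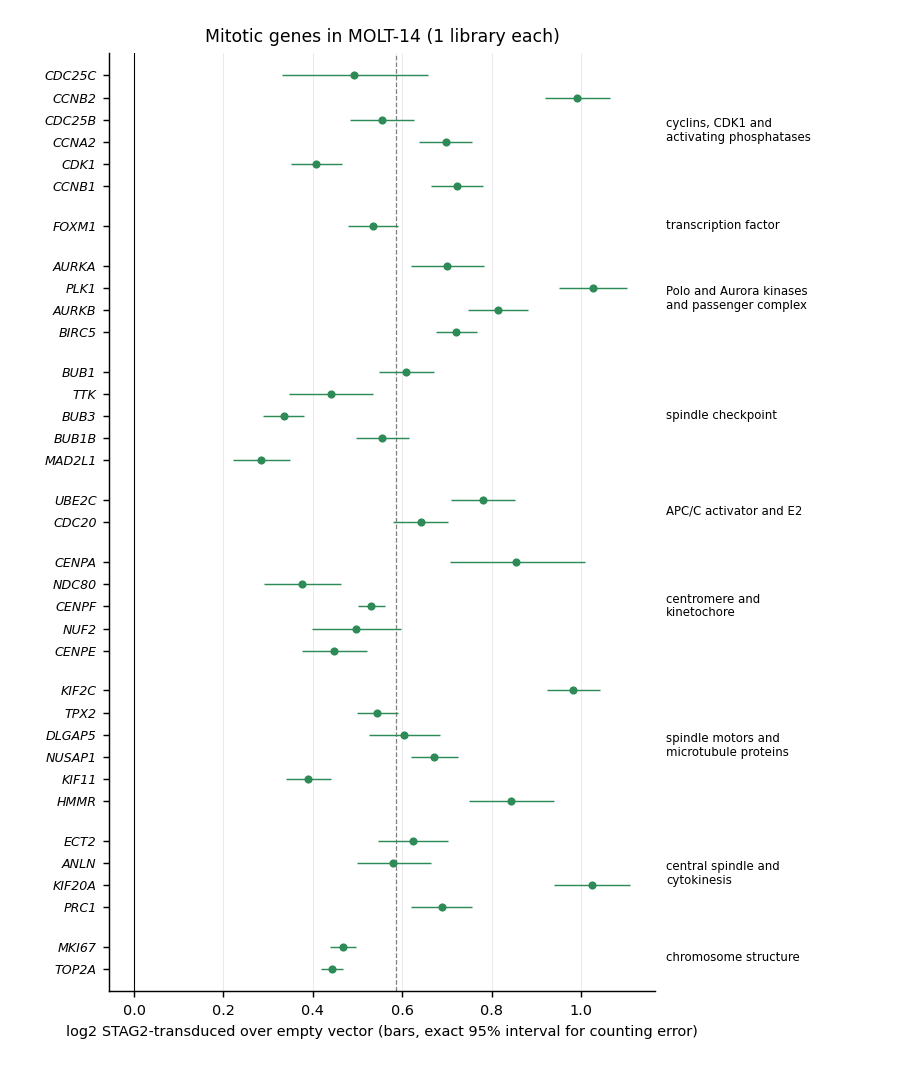
Log2 ratio of STAG2-transduced over empty-vector MOLT-14 for the 35 members by role (1 library each, bars are exact 95% intervals for counting error), with a dashed line at 1.5-fold. Members run from 0.28 (MAD2L1) to 1.03 (PLK1), and 18 lie past the line.

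The knockout changes in PF-382 and the STAG2 ratios in MOLT-14, which share no library, had a Pearson r of -0.28 and a Spearman rho of -0.28 over the 35 members, given as a description, since genes of 1 library are not independent. PLK1 and KIF20A were among the lower members in the knockouts and had the largest ratios with STAG2. AURKB and KIF2C, with ratios of 0.81 and 0.98 in MOLT-14, were not called by edgeR in PF-382, although KIF2C was called lower there by DESeq2 (adjusted p 0.0300) and by edgeR with upper-quartile scaling (adjusted p 0.0382).

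Between the lines, 30 of the 35 members were called higher in PF-382 than in MOLT-14 and 0 lower (edgeR on all 7 libraries, mean of both groups of each line), where 27.0% of 20100 genes tested were called higher and 28.4% lower. At an unadjusted p under 0.05 the count of lower members was 0 as well, and DESeq2 and limma voom each called 0 lower. The median log2 difference was 1.55 over the members and -0.05 over all genes. The spread in this fit comes from the PF-382 replicates, and the lone MOLT-14 libraries are assumed to vary like them. CPM values in this comparison are scaled over all 7 libraries. The largest difference was that of TTK, at 196, 219 and 239 CPM in the knockouts and 209 and 298 CPM in the wild types of PF-382, against 44.7 CPM with STAG2 and 32.8 CPM with the empty vector in MOLT-14 (log2 2.65, SE 0.19, adjusted p 0.000166). UBE2C, DLGAP5, HMMR and ECT2 followed with log2 differences of 2.26, 2.24, 2.20 and 2.13 and adjusted p of 0.000136 to 0.00225. In each of these members every PF-382 library lay above both MOLT-14 libraries. HMMR was at 154, 189 and 202 CPM in the knockouts and 164 and 165 CPM in the wild types of PF-382, against 51.6 CPM with STAG2 and 28.6 CPM with the empty vector.

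The scale mattered here too. On TPM every PF-382 library lay above both MOLT-14 libraries in 15 members, against 5.97% of all genes, and below both in 1, CENPF, against 54.1% of all genes. By CPM the first count was 30, against 25.3% of all genes, and the second was 0, against 31.0% of all genes. Limma on log2(TPM + 1) called 3 members higher, HMMR, TTK and UBE2C, and 0 lower, with 1 lower at an unadjusted p under 0.05, where 5.59% of all genes were called higher and 60.7% lower. The median was 0.43 over the members and -0.46 over all genes. BUB1B, called higher on counts, was at 29.8, 23.2 and 23.6 TPM in the knockouts and 22.2 and 41.97 TPM in the wild types of PF-382, against 36.7 TPM with STAG2 and 39.3 TPM with the empty vector in MOLT-14. NDC80, also called higher on counts, was at 20.3, 15.2 and 16.5 TPM in the knockouts and 15.3 and 31.2 TPM in the wild types of PF-382, against 19.96 TPM with STAG2 and 22.7 TPM with the empty vector. In both genes the lines overlapped on TPM. The summed level of the members was 1909, 1766 and 1765 TPM in the knockouts and 1379 and 3023 TPM in the wild types of PF-382, against 1386 TPM with STAG2 and 1348 TPM with the empty vector. Relative to all genes the members thus stood higher in PF-382 on both scales, while the direction of single members depended on the scale.

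On counts, the 5 members not called between lines were CENPF, CENPE, MKI67, FOXM1 and CDC25B. CENPF was at 324, 273 and 247 CPM in the knockouts and 250.03 and 462 CPM in the wild types of PF-382, against 432 CPM with STAG2 and 297 CPM with the empty vector in MOLT-14 (log2 -0.15, SE 0.24, adjusted p 0.620). Without wild type 2, CENPF was called lower (log2 -0.42, adjusted p 0.0377). CENPE was at 69.2, 64.1 and 59.1 CPM in the knockouts and 60.8 and 83.0 CPM in the wild types of PF-382, against 74.9 CPM with STAG2 and 54.7 CPM with the empty vector (log2 0.11, SE 0.15, adjusted p 0.537). MKI67 was at 413, 308 and 305 CPM in the knockouts and 454 and 764 CPM in the wild types of PF-382, against 479 CPM with STAG2 and 345 CPM with the empty vector (log2 0.19, SE 0.24, adjusted p 0.512). For these genes the lines overlapped by CPM. FOXM1 and CDC25B had log2 differences of 0.36 and 0.41 with adjusted p of 0.154 and 0.0888, and both were called higher without wild type 1. Without the empty-vector library 23 members were called higher, and leaving out any other library gave 29 to 32. KIF23 by its gene ID was higher in PF-382 (log2 1.09, SE 0.22, adjusted p 0.00649).

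The members with the smallest line differences were also the longest: MKI67, CENPF and CENPE have exonic lengths of 12807, 11690 and 9444 bases in GENCODE 29. Over the 35 members, the line difference and exonic length had a Spearman rho of -0.33 (Pearson r -0.48), against -0.05 over 14220 coding genes. The MOLT-14 ratio and length had a rho of -0.51, against -0.18 over 10452 coding genes. For knockout 1 over the mean of knockouts 2 and 3, which are libraries of the same group, the rho was 0.51, against 0.22 over 13023 coding genes. For knockout over wild type it was -0.02 and for wild type 2 over wild type 1 it was -0.01. These values are descriptions across genes that share their libraries, and the part of length in the line difference was not tested.

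**Figure D5:**
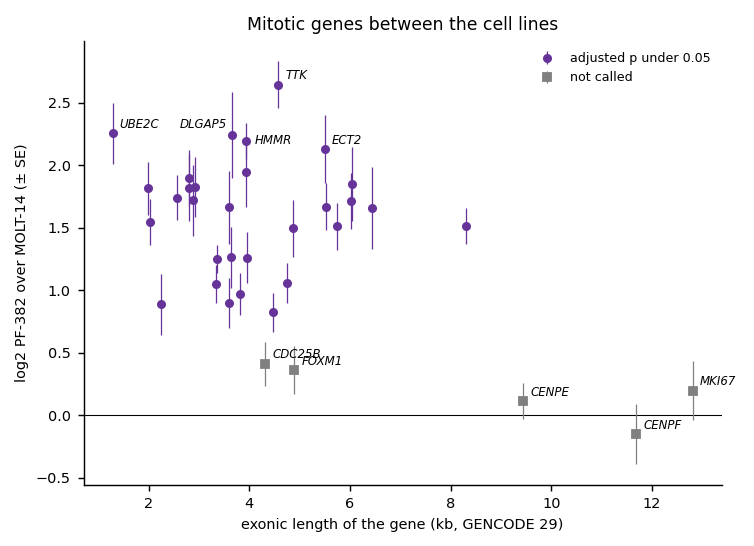
Log2 difference of PF-382 over MOLT-14 (± SE, fit on all 7 libraries) against exonic length in kb for the 35 members, with called members as circles and those not called as squares. The 3 longest members, MKI67, CENPF and CENPE, lie near 0, and TTK is highest at 2.65.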

How the data were processed

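Total RNA was sequenced in 7 libraries of 2 T-ALL cell lines. Per the submitters' processing notes, STAR and RSEM were used with GRCh38 (hg38). Versions, annotation release and strand setting are not given in the sources used here. The authors deposited expected counts per gene, which were rounded here, and TPM, used here for levels, ratios and an alternative. The deposited FPKM were not used, and 92 ERCC features were left out. Where a gene had fractional counts in any library it shares reads with other genes, which held for 7 members.

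PF-382 was fitted with edgeR 4.0.16 in R 4.3.3 (TMM, filterByExpr, quasi-likelihood test, two-sided, Benjamini-Hochberg over all genes, threshold 0.05, no covariates), and the line comparison in the same way on all 7 libraries with 4 group means. The standard errors of log2 changes come from the log2 change and the F statistic. The biological coefficient of variation was 0.242 in PF-382. Both fits were tested on simulated data with noise drawn separately for each gene. That setting holds no gap between the wild types shared by many genes, so it cannot check the member calls against that spread. MOLT-14 was compared by log2 CPM ratios with a prior count of 2. Floors and intervals cover counting error only. DESeq2 1.42.0 and limma 3.58.1 served as alternatives. Limma on log2(TPM + 1), with the genes of the count fit, was added after seeing the data.

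Genes named by rule were the called members, the largest change in each role, the 5 largest and smallest differences in MOLT-14 and between lines, and the 3 smallest p-values of each related list. Values were also given for CCNB1, AURKB, BIRC5, BUB1B, CDC20, TPX2 and TOP2A, which were picked outside these rules. The members and lists were chosen with earlier results of these data known. Positions, lengths and symbols came from GENCODE 29 and promoters from RefSeq.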

Additional observations from a re-analysis of the deposited data

How the results depend on the processing

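No paired analysis was possible because the replicate numbers only follow accession order and the groups share no labelled pairing. Of the PF-382 settings, upper-quartile scaling called 14 members lower, voom with quality weights 5 and the SA-coded libraries 0, against 9 with the chosen fit, and leaving out 1 library gave 0 to 29 lower and 0 to 4 higher. Between lines, leaving out 1 library gave 23 to 32 higher and 0 to 1 lower. Limma on log2(TPM + 1), added after seeing the data, called 0 members lower in PF-382, and 3 higher in PF-382 than in MOLT-14. In MOLT-14, TPM left 0 and a 2-fold limit 2 of the 18 members. Of all genes there, TPM left 0.586% and the 2-fold limit 1.17%, against 4.18% with the chosen setting. In PF-382, upper-quartile scaling called 20.4% of all genes lower and voom 8.71%, against 14.6% with the chosen fit. Under the other PF-382 settings 334 member values kept direction and side of the threshold, 13 became called, 26 lost the call and 12 changed sign. Values that changed sign were those of BIRC5 (-0.064 with upper-quartile scaling, -0.012 in SA-coded libraries), MAD2L1 (-0.065 with upper-quartile scaling), CDC20 (-0.0045 and -0.066 in the same 2 settings) and HMMR (-0.086 and -0.16 in these, -0.0062 with at least 1 CPM, -0.015 with coding genes alone), and KIF11 (0.030 without a filter, 0.0067 with voom, 0.16 with TPM). Leaving out 1 library, the log2 change ran from -0.81 to 0.12 for CCNA2, -0.71 to 0.26 for CDK1, -0.48 to 0.23 for FOXM1, -0.79 to 0.12 for AURKB, -0.13 to 0.40 for BIRC5, -0.79 to 0.30 for BUB1, -0.37 to 0.15 for BUB1B, -0.50 to 0.011 for TTK, -0.15 to 0.43 for MAD2L1, -0.060 to 0.44 for CDC20, -0.42 to 0.029 for CENPE, -0.76 to 0.12 for CENPF, -0.39 to 0.44 for KIF11, -0.98 to 0.076 for TPX2, -0.018 to 0.17 for HMMR, -0.74 to 0.29 for NUSAP1, -0.95 to 0.29 for DLGAP5 and -0.96 to 0.23 for TOP2A. Between lines, CENPE was at -0.031 with upper-quartile scaling and at -0.11 to 0.33 with 1 library left out, CENPF at 0.29 for wild type against empty vector and at -0.42 to 0.10, and MKI67 at -0.037 to 0.42. With TPM, values that changed sign between lines were those of CDC25B (-0.52), FOXM1 (-0.54), AURKB (-0.081), BUB1B (-0.43), MAD2L1 (-0.0052), CENPE (-0.49), NDC80 (-0.13) and MKI67 (-0.76). The cause was not tested. Depth was lowest in the wild types, and no MOLT-14 value has a replicate.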

Other observations

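TK1, the thymidine kinase of dividing cells (chr17:78174075-78187233, GRCh38), lies 26953 bases from BIRC5 and was picked after its values were seen. Its rounded counts were 1834 in knockout 1, 17 in knockout 2 and 1024 in knockout 3, against 0 in both wild types, where 3 counts would make 0.0905 to 0.0920 CPM. In MOLT-14 it had 9251 counts with STAG2 and 5444 with the empty vector. AFMID, whose annotated start lies 84 bases from that of TK1 on the other strand, followed the same libraries, at 453, 5 and 221 counts in the knockouts, 2 and 0 in the wild types, 1512 with STAG2 and 1340 with the empty vector. BIRC5 was at 279 to 319 CPM in the knockouts and 219 to 310.3 CPM in the wild types. TK1 was not called by edgeR in the chosen fit (adjusted p 0.0589) or by voom with quality weights (0.667). It was called by DESeq2 (0.000512), by edgeR without a filter (0.0116) and by edgeR without knockout 2 (0.0185). Over its settings with at least 2 libraries in each group the adjusted p ran from 0.000512 to 0.667. In the SA-coded libraries, where knockout 1 is the only knockout, its log2 change was 13.3, against 12.7 in the chosen fit. Knockout 2 thus stood apart from the other knockouts at this pair of genes.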
